A study of Mus musculus with 11 samples.

Results

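Crxos and the Obox genes form a cluster of homeobox genes on mouse chromosome 7, and 6 of them, Crxos, Obox1, Obox2, Obox3, Obox5 and Obox6, are described here in RNA-seq of WT and Atxn7l3-/- cells. They were chosen by gene name, and with values of these data known: Crxos and Obox6 were picked because their transcript levels were far lower in Atxn7l3-/- mouse embryonic stem cells (mESCs) than in WT mESCs. The mESC differences of the members are therefore given as a description, with no test. Of the 6 genes, 5 are among the 31518 genes of the mESC table and 2 are among the 29450 genes of the mouse embryonic fibroblast (MEF) table.

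Homeobox genes encode transcription factors that bind DNA through a homeodomain, a fold of helices whose last helix lies in the major groove of the DNA and reads the bases. Obox genes (oocyte-specific homeobox) are known for expression in oocytes and early cleavage embryos, and Crxos, which lies beside Crx, for expression in early embryos and embryonic stem cells. Crx encodes the paired-like homeodomain factor of photoreceptors. ATXN7L3 is the adaptor of the deubiquitylation module of the SAGA coactivator complex, which removes ubiquitin from histone H2B.

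The libraries were poly(A) RNA from 2 WT (Atxn7l3+/+) and 3 Atxn7l3-/- mESC lines and from 3 WT and 3 Atxn7l3-/- MEF cultures, all of the strain labelled DBA/2 x C57BL/6. According to the study's methods the null allele was obtained by crossing carriers of the targeted allele to a recombinase deleter strain, and homozygous mutants came from intercrosses of heterozygotes, so the loss is not restricted to a cell type. The labels name no other allele or agent that differed between genotypes. The mESC lines each came from a single blastocyst, were grown on feeder cells for their first passages and then without feeders with LIF, 15% FCS, 1 µM PD0325901 and 3 µM CH99021, so each line stands for 1 embryo. MEFs came from single E10.5 embryos without head and gut and were grown in 10% FCS. Library totals were 44323540 to 45234276 counts in WT mESCs, 35050190 to 40459852 in Atxn7l3-/- mESCs, 34515342 to 49602605 in WT MEFs and 38283644 to 45963728 in Atxn7l3-/- MEFs. CPM are counts scaled to the normalized library size. The floor used for a gene without reads was 3 counts per library, or 0.0605 to 0.0869 CPM, and intervals and floors cover counting error only.

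The targeted gene was low in every mESC line labelled Atxn7l3-/-. Atxn7l3 was at 222 and 223 CPM in the WT lines and at 3.91, 1.79 and 0.976 CPM in the Atxn7l3-/- lines 1, 2 and 3. In MEFs it was at 79.7, 104 and 92.9 CPM in WT and at 49.2, 49.5 and 67.3 CPM in Atxn7l3-/-, so the MEF groups did not overlap. Mean levels were 92.3 CPM in WT and 55.3 CPM in Atxn7l3-/- MEFs, against 222 and 2.22 CPM in mESCs. The near loss of Atxn7l3 reads in mESCs was thus not seen in MEFs. The paper reports that ATXN7L3 protein could not be detected in either mutant cell type. The source of the remaining MEF reads was not tested. All 7 mESC markers were detected in mESCs, with a summed level of 4015 to 4643 CPM in WT and 3764 to 4025 CPM in Atxn7l3-/-. All 7 fibroblast markers were detected in MEFs. Of 7 oocyte markers 6 were listed in mESCs, 3 were tested and 1 was called. Bmp15, an oocyte growth factor gene, was the one called, at 1.18 and 0.770 CPM in WT and 0.0601, 0.0477 and 0 CPM in Atxn7l3-/- mESCs (log2 fold change -4.67, adjusted p = 0.028 by edgeR). Zp2, a zona pellucida gene that was not tested, was at 0.816 and 0.0679 CPM in WT and 0 to 0.0238 CPM in Atxn7l3-/-. Zp3 was at 10.1 and 12.2 CPM in WT and 15.2 to 20.3 CPM in Atxn7l3-/- and Gdf9 at 0.362 to 0.752 and 0.211 to 0.477 CPM, neither passing the test. Zp1 was at 0.0644 CPM or less in all 5 lines. Figla was at 0.043 and 0 CPM in WT and 0.0477 to 0.241 CPM in Atxn7l3-/-, from few reads. Bmp15 and Zp2 had fewer reads in Atxn7l3-/- lines, as Crxos and Obox6 did, but the oocyte markers as a set did not. Their summed level, mostly Zp3, was 12.95 to 13.47 CPM in WT and 15.91 to 20.58 CPM in Atxn7l3-/- mESCs. The part of oocyte transcripts in the difference of the members was not tested.

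The sequences encoding the recognition helix are shown because they tell the members apart by the part of the protein that meets DNA. Each window was read 5′ to 3′ along the coding strand from the GENCODE M21 transcripts of mm10, and the capitals mark the codon of homeodomain residue 50, the residue after the invariant tryptophan and phenylalanine that is known to set much of the binding preference.
Crxos, first stretch: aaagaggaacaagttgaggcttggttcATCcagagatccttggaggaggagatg
Crxos, second stretch: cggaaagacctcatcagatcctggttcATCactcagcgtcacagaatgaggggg
Obox1: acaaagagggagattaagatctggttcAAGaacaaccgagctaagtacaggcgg
Obox3: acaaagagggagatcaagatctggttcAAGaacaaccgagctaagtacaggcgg
Obox5: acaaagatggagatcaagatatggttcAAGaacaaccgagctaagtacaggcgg
Obox6: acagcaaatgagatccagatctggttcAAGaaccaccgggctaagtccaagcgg
Crx: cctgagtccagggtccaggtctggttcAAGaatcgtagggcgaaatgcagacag

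Obox1, Obox3, Obox5, Obox6 and Crx carried a lysine codon at this residue, followed by asparagine. Crxos encoded the tryptophan-phenylalanine pair in 2 places of its 246 residues, at residues 60 and 170, and both were followed by an isoleucine codon. The windows of Obox1 and Obox3 shared 53 of 54 bases, Obox6 shared 43 or 44 with Obox1, Obox3 and Obox5 and 33 with Crx, and the Crxos stretches shared 18 to 24 bases with each other and with the rest. For Obox2 no such pair with a full window of 54 bases was found in the annotated coding sequence, so none is shown. A pair too near an end of that sequence would have been missed. The Obox6 window lay at chr7:15833915-15834397 on the minus strand and the Crxos windows at chr7:15897535-15898480 and chr7:15902990-15903735 on the plus strand, each split by an intron.

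The genes differ in how well reads can be assigned to them. Obox6 (chr7:15833241-15839678, minus strand, 1 transcript of 3 exons, ENSMUSG00000041583) shared 65 of its 1295 exonic 50-base words, or 5.0%, with another gene, and that gene was the pseudogene Obox6-ps1. Crxos (chr7:15882617-15904020, plus strand, 6 transcripts, ENSMUSG00000074365) shared 18.5%, most with the pseudogene E530001F21Rik, which had 5 reads in WT line 1 and 0 in the 4 other mESC libraries. Obox1 and Obox2 shared 57.4% and 65.1%, mainly with each other, so values of these genes are uncertain. Obox1 spans chr7:15388948-15556866 and Obox2 chr7:15388721-15398545, both on the plus strand. Obox3 (chr7:15479825-15639902, minus strand) shared 20.2% and Obox5 (chr7:15750131-15759800, plus strand) 18.1%. The gene body of Obox1 overlaps those of Obox2, on the same strand, and of Obox3, on the opposite strand, and the strand setting of the counting was not given in the sources used here.

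Obox6 was the member with the most reads in WT mESCs. It had 2302 and 2890 reads in the WT lines and 44, 3 and 0 reads in the Atxn7l3-/- lines 1, 2 and 3. In library-size normalized units this was 49.4 and 65.4 CPM against 1.32, 0.0715 and 0 CPM, or 57.4 ± 11.3 (SD, n = 2) against 0.465 ± 0.744 (SD, n = 3). Both WT lines lay above all 3 Atxn7l3-/- lines, and within the Atxn7l3-/- group line 1 held nearly all reads. Against the WT mean, Obox6 was 43.4-fold lower in line 1 (95% Poisson interval 32.3 to 59.7), 803-fold lower in line 2 (275 to 3895, from 3 reads) and at least 726-fold lower in line 3, computed at the floor of 3 counts in that library. The fitted log2 fold change of Atxn7l3-/- over WT was -7.00 with a standard error of 1.20.

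Crxos had 1318 and 1283 reads in the WT lines and 26, 4 and 13 reads in the Atxn7l3-/- lines. These were 28.3 and 29.0 CPM against 0.782, 0.0953 and 0.343 CPM, or 28.7 ± 0.515 (SD, n = 2) against 0.407 ± 0.348 (SD, n = 3). The WT lines were close to each other and the groups did not overlap. Crxos was 36.7-fold lower than the WT mean in line 1 (95% Poisson interval 25.0 to 56.1), 301-fold lower in line 2 (117 to 1104) and 83.6-fold lower in line 3 (48.9 to 157). The fitted log2 fold change was -6.16 with a standard error of 0.70. Non-overlap alone was common here, as every Atxn7l3-/- library lay below every WT library for 25.1% of the 17800 genes tested. Since the libraries are bulk RNA, fewer cells with these transcripts and fewer transcripts per cell cannot be told apart.

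**Figure D1:**
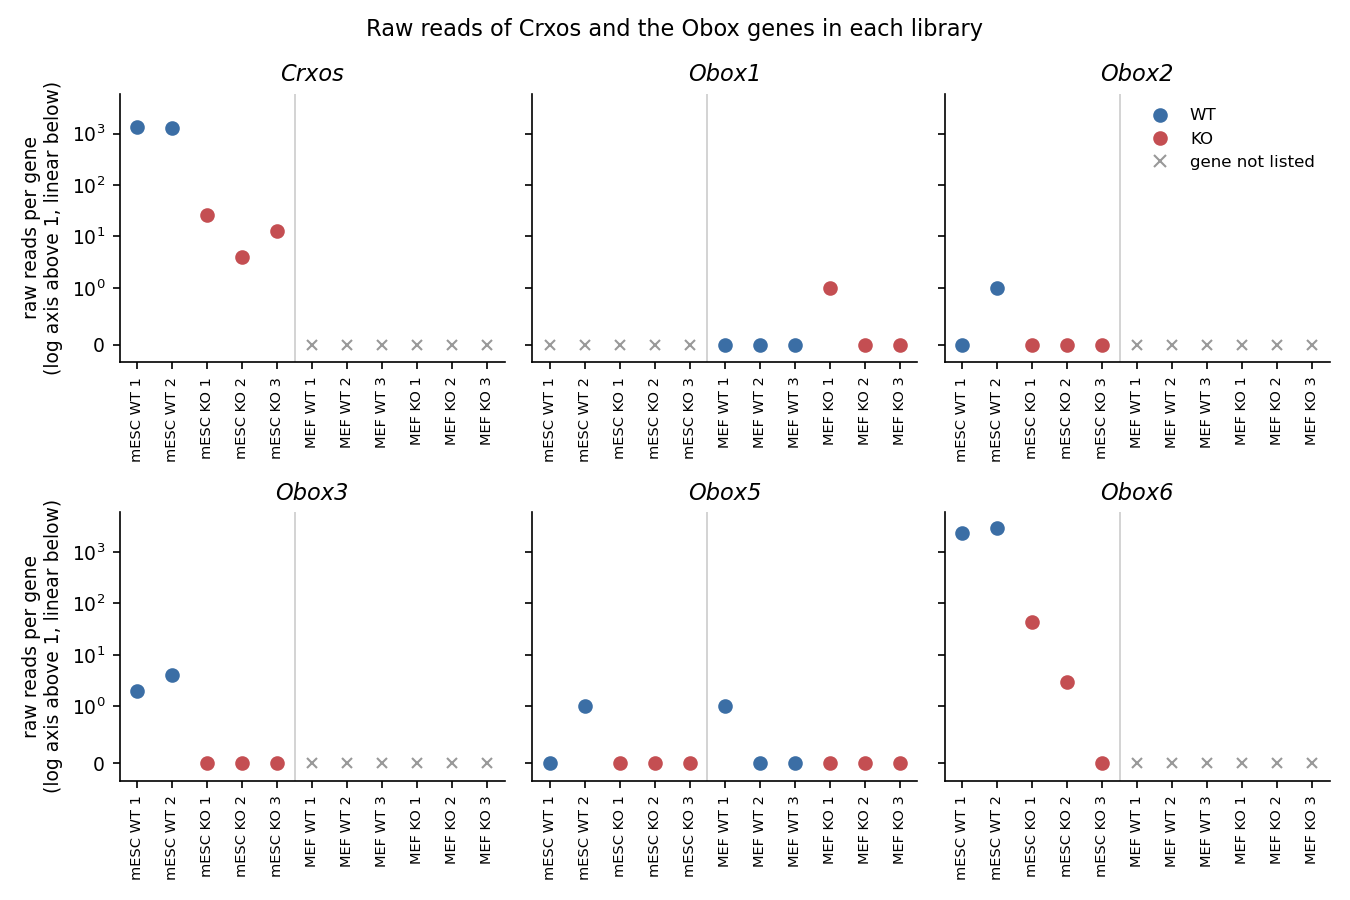
Raw reads of each member in the 5 mESC and 6 MEF libraries (vertical axis linear from 0 to 1 read and logarithmic above; blue points WT, red points Atxn7l3-/-, grey crosses a gene not listed in that table). Crxos and Obox6 had 1283 to 2890 reads in WT mESCs and 0 to 44 in Atxn7l3-/- mESCs, while no other member had more than 4 reads in any library.

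Among the 17800 genes tested in mESCs, ordered from the most negative fitted log2 fold change, Obox6 stood at place 11 and Crxos at place 25. The genes next to Obox6 in this order were Gm2035, at -7.03, and Zscan4a, at -6.98, and those next to Crxos were Abcb5, at -6.17, and Gm4971, at -6.11. These 4 genes are named for their place next to the members. Their WT means were 35.0, 44.8, 20.5 and 27.95 normalized reads per kb of transcript, a length-scaled level, in the order named, against 1634 for Obox6 and 1457 for Crxos. Of the first 25 genes in the order, only the targeted Atxn7l3 itself, at 2395 normalized reads per kb, had a higher WT mean than Obox6 on this scale.

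Per transcript length, the order of the members in WT mESCs was Obox6, Crxos, Obox3, Obox2 and Obox5. In normalized reads per kb Obox6 was at 1634 ± 325 and Crxos at 1457 ± 29.6 (SD, n = 2), which did not differ beyond the spread of Obox6 between lines. These levels put Obox6 at place 4104 and Crxos at place 4464 of the 31518 listed genes, above 87.0% and 85.8% of them. In Atxn7l3-/- mESCs Crxos was at 19.9 ± 16.8 and Obox6 at 12.7 ± 20.2 (SD, n = 3), again without a difference beyond the spread, at places 14776 and 15902. The other 3 listed members had 0.5005 to 1.79 normalized reads per kb in WT, and do not differ from each other beyond their counting error.

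Obox1, Obox2, Obox3 and Obox5, the members closest in sequence to each other, had almost no reads. Obox3 had 2 and 4 reads in WT mESCs and 0 in all 3 Atxn7l3-/- lines. Obox2 and Obox5 had 0 and 1 read each in the WT lines and 0 in the Atxn7l3-/- lines, and Obox1 was not listed in the mESC table. WT levels of these genes were at or under the floor of 3 counts or within counting error of it, so no fold change is given and a difference between genotypes was not detectable at this depth. Only Crxos and Obox6, 2 of the 5 listed members, passed the filter on low counts, and they passed through the WT lines where they were high.

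The other annotated Obox loci, mostly pseudogenes of Obox4 and Obox3, had few reads, nearly all of them in the WT lines. The mESC table lists 19 of them, 18 on chromosome 7, including 14 named Obox4-ps and 4 named Obox3-ps. Summed over these loci there were 56 and 32 reads in the WT lines and 2, 1 and 0 in the Atxn7l3-/- lines. Of the 19 loci, 17 had no read in any Atxn7l3-/- line, the exceptions being Obox4-ps16 and Obox3-ps7. Obox4-ps16, the locus with the most reads, had 14 and 6 reads in WT and 2, 0 and 0 in Atxn7l3-/- mESCs. Obox6-ps1, the only gene that shares 50-base words with Obox6, had 2 and 1 reads in WT. With the counts of all Obox loci summed into 1 value, the log2 fold change was -6.94 in place of -7.00 for Obox6 alone.

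In MEFs, whose libraries did not enter the choice of members, the genes were near or below detection in both genotypes. Crxos, Obox2, Obox3 and Obox6 were not listed in the MEF table, whose listed genes each have at least 1 read over the 6 libraries. Obox1 had 1 read in Atxn7l3-/- culture 1 and 0 elsewhere, and Obox5 had 1 read in WT culture 1 and 0 elsewhere. Neither passed the filter on low counts, so no member was tested in MEFs. Without that filter edgeR's quasi-likelihood test gave both an adjusted p of 0.54, and DESeq2 gave an unadjusted p of 0.79 for Obox1 and 0.84 for Obox5 and left the adjusted p unset. The share of genes called at an adjusted p of 0.05 or less, in either direction, was 9.41% of the 15958 genes tested in MEFs.

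The mESC lines differed in sex-linked transcripts, and Crxos and Obox6 were low in Atxn7l3-/- lines with and without Y-linked expression. Ddx3y, a Y-linked RNA helicase gene, was at 90.6 and 193 CPM in the WT lines, at 3.46 and 0.882 CPM in Atxn7l3-/- lines 1 and 2 and at 225 CPM in line 3. Xist, the RNA that coats the inactive X chromosome, was at 10.96 and 25.3 CPM in WT, at 58.3 and 51.0 CPM in lines 1 and 2 and at 2.80 CPM in line 3. Eif2s3y and Uty were split between the lines in the same way as Ddx3y. Kdm5d, at 6.66 and 25.1 CPM in WT, was at 0.686 CPM in line 3 as well. Line 3, which like both WT lines expressed Ddx3y, Eif2s3y and Uty, had 13 reads of Crxos and 0 of Obox6. Compared with line 3 alone, the log2 fold change of Crxos was -6.37. The corresponding Obox6 value of -14.27 rests on 0 reads and is no bound. Line 3 is a single line, and the part of line sex in the difference of Crxos and Obox6 was not tested.

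All 7 fibroblast and feeder markers were detected in mESCs, with a summed level of 25.7 and 106 CPM in WT and 311 to 429 CPM in Atxn7l3-/- lines. Col1a1, a collagen chain, was at 10.9 and 52.3 CPM in WT and at 165, 211 and 174 CPM in Atxn7l3-/-. Of the 6 markers tested 1 was called. The part of these transcripts in the difference of Crxos and Obox6 was not tested. Neither gene was listed in MEFs.

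**Figure D2:**
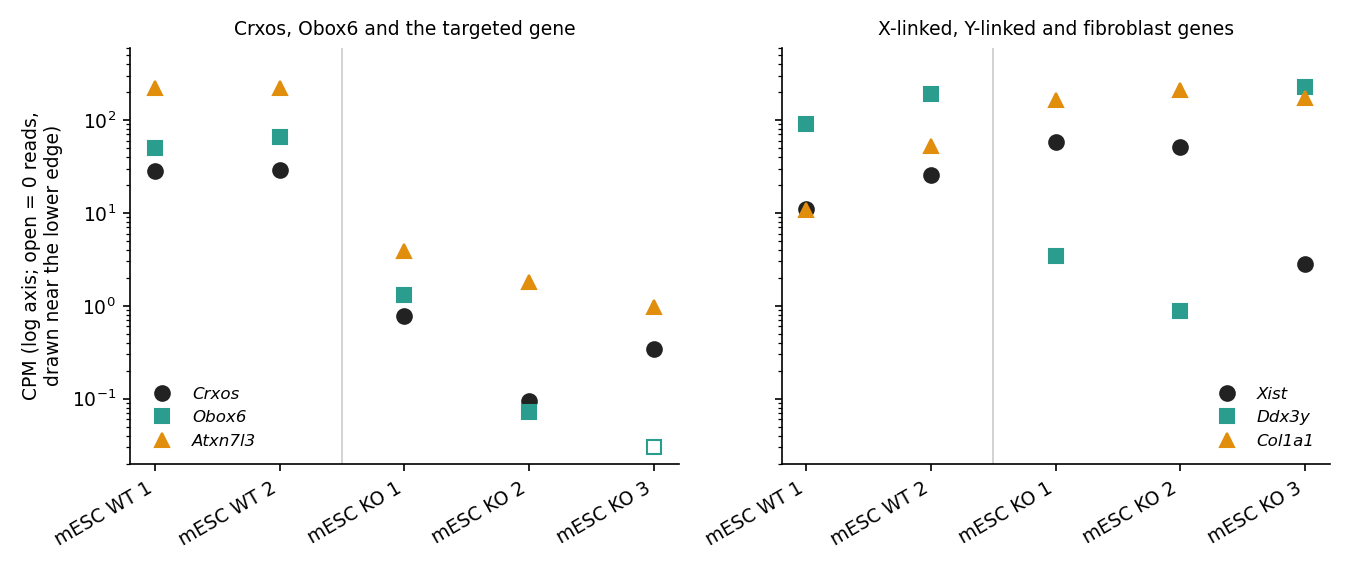
CPM per mESC line on a log axis for Crxos, Obox6 and Atxn7l3 (left) and for Xist, Ddx3y and Col1a1 (right), 1 point per library, open symbols 0 reads. Crxos and Obox6 were at 0 to 1.32 CPM in all 3 Atxn7l3-/- lines, including line 3 with Ddx3y at 225 CPM.

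Genes around the cluster were read to see how far along chromosome 7 the low level reached. The window from 500 kb before to 500 kb after the members held 36 further listed genes in mESCs, of which 13 were Obox loci and 23 were other genes. Crx, which starts 2.65 kb from Crxos on the opposite strand, had 4 and 6 reads in WT and 0, 1 and 0 in Atxn7l3-/- mESCs, and was not tested. Of the 17 genes tested, 16 lay beyond the end of Crxos. At an adjusted p of 0.05 or less in edgeR's quasi-likelihood test 0 were called higher and 1 lower, against 6.96% of all 17800 genes tested called in either direction. The median log2 fold change of the 17 was 0.13 and that of all genes tested 0.04.

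The gene called was Zc3h4, a zinc finger gene that starts 497 kb beyond Crxos, at 96.5 ± 12.8 CPM in WT and 31.1 ± 13.3 CPM in Atxn7l3-/- mESCs (log2 fold change -1.64, SE 0.33, adjusted p = 0.034 by edgeR). The nearest tested genes to Crxos did not pass the test. Selenow, a selenoprotein gene 13.2 kb beyond Crxos, was at 95.7 ± 11.1 CPM in WT and 105 ± 38.0 CPM in Atxn7l3-/-, a log2 difference of 0.13. Nop53, a ribosome biogenesis gene, had a log2 difference of 0.77 and Ehd2, an endocytic ATPase gene, -1.09. Selenow, Nop53 and Ehd2 are named for their position and were chosen after their values were seen. Without mESC WT line 1, WT line 2 or Atxn7l3-/- line 1, 0 genes of the window were called by edgeR, with 2 at an unadjusted p under 0.05 in each case. Without Atxn7l3-/- line 2 there were 3 called.

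**Figure D3:**
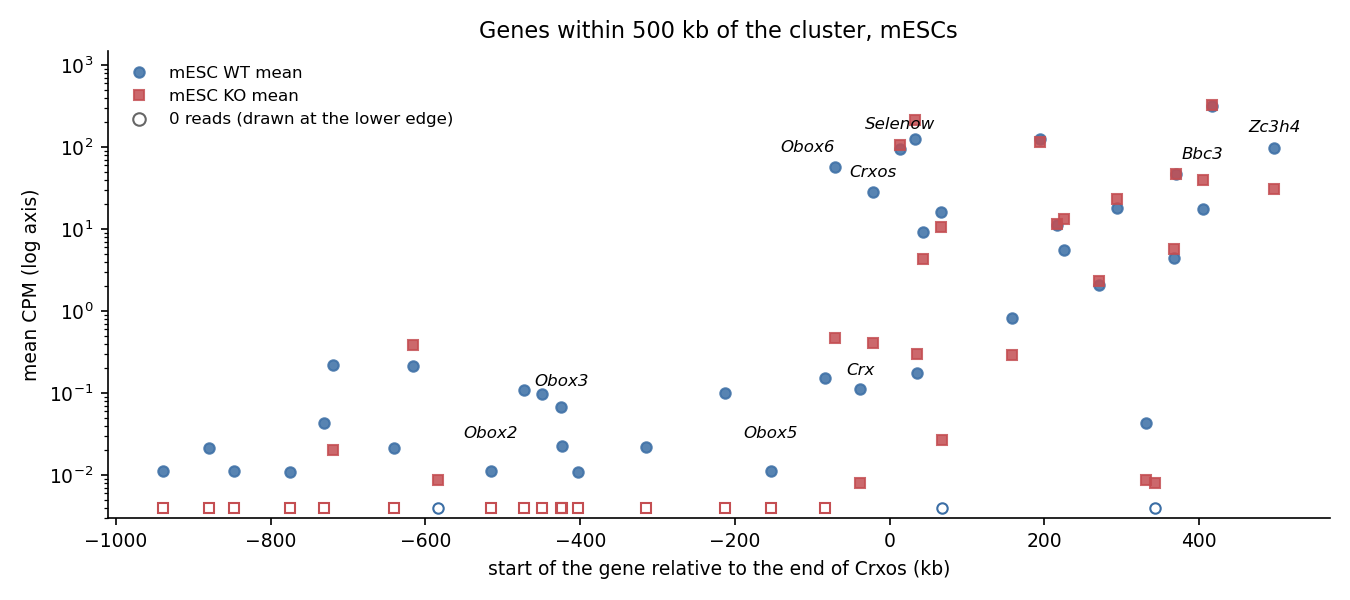
Mean CPM on a log axis of the listed genes within 500 kb of the cluster in WT (blue circles, n = 2) and Atxn7l3-/- mESCs (red squares, n = 3), placed by the distance in kb from the end of Crxos to the start of the gene, open symbols 0 reads. Obox6 went from 57.4 CPM in WT to 0.465 CPM in Atxn7l3-/- and Crxos from 28.7 to 0.407 CPM, and of the 16 tested genes to the right of Crxos 1, Zc3h4, was called.

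In MEFs the same window held 19 listed genes that were no members, of which 16 were tested, with 0 called higher and 1 called lower, against 9.41% of all genes tested called in either direction. The gene was Bbc3, a proapoptotic BCL2-family gene, at 22.3 ± 9.28 CPM in WT and 5.17 ± 2.44 CPM in Atxn7l3-/- MEFs (log2 fold change -2.11, adjusted p = 0.044 by edgeR). With the replicate numbers as a block 2 genes of the window were called lower. The count was 0 without any 1 of the WT cultures or of Atxn7l3-/- cultures 1 and 2, with 2 to 4 genes at an unadjusted p under 0.05. In mESCs Bbc3 had a log2 difference of 1.19 and an adjusted p of 0.084.

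Of the homeobox genes other than the members 5 were called in mESCs, a count that depended on the setting and on single libraries. The mESC table describes 240 genes other than the members as homeobox, of which 139 were tested, with 2 called higher and 3 called lower, against 6.96% of all genes tested called in either direction, and a median log2 fold change of 0.30 against 0.04 over all genes. Lower in Atxn7l3-/- mESCs were Cdx2, the caudal factor of trophectoderm (6.08 ± 2.39 to 0.764 ± 0.518 CPM), Irx4 (0.810 ± 0.313 to 0.108 ± 0.037 CPM) and Zhx2. Dlx2, a distal-less factor of forebrain and branchial arches, and Hoxa9 were higher, at 1.13 and 1.33 CPM against 0.154 and 0.210 CPM in WT. Zhx2 lies outside the naming rule and is named to complete the 5. The list rests on the word homeobox in the table's description. It takes in genes named as opposite strand, such as Zfhx2os, and leaves out homeobox genes described otherwise. One of those left out is Nkx1-2, an NK-class homeobox gene named after its values were seen. It stood at place 16 in the order of mESC decreases, between Obox6 and Crxos. Its log2 fold change was -6.70 (SE 0.94) and its WT mean 25.3 normalized reads per kb. The count was 0 without WT line 1, without WT line 2 or without Atxn7l3-/- line 1, with 22, 26 and 31 genes at an unadjusted p under 0.05. It was 12 without Atxn7l3-/- line 2 and 15 without line 3. DESeq2, run without the filter on low counts, called 27 of 240, against 3424 of 31518 over all genes. In the main edgeR fit 50 of the 139 had an unadjusted p under 0.05, against 5309 of 17800 over all genes.

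Calls among paired-class relatives of Crx and Otx depended on the setting, and too few were tested to read a low count as a result. Of 17 genes in this list 16 were listed in mESCs and 12 tested. Of these edgeR called 0, against 6.96% of all genes tested. In this fit 3 had an unadjusted p under 0.05, and the median log2 fold change was 0.44. DESeq2, run without the filter on low counts, called 1 of 16, against 3424 of 31518 over all genes. Without Atxn7l3-/- line 3 edgeR called 1, against 1514 of 17551 over all genes. Otx1 was at 1.25 ± 0.390 CPM in WT and 2.40 ± 1.164 CPM in Atxn7l3-/- mESCs, and Otx2, a factor of the exit from naive pluripotency, at 1.801 ± 1.42 and 4.84 ± 3.60 CPM, neither passing the test. In MEFs 12 of the list were listed and 3 tested, with 0 called by edgeR, against 9.41% of all genes tested. In that fit 1 had an unadjusted p under 0.05. DESeq2, which took all 12, called 2, against 3965 of 29450 over all genes. With the replicate numbers as a block edgeR called 1, against 2232 of 15958 over all genes.

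Among the 110 genes described as homeobox and tested in MEFs, 4 were called higher and 12 lower, against 4.39% of all genes tested called lower. The 110 include genes named as opposite strand, such as Dlx4os and Hoxa11os, both called. With the replicate numbers as a block the counts were 5 higher and 23 lower, against 8.49% of all genes tested called lower in that fit. Their median log2 fold change was -1.35, against -0.06 over all genes. Among the genes called, the largest decreases were those of Hoxd13 and Six2, factors of distal limb and of kidney and muscle progenitors. They fell by 9.27 and 7.44 on the log2 scale, while Dlx4os and Nkx2-3 rose by 9.05 and 7.43. These sizes are uncertain, as the lower group of each had a mean under the floor. It was 0.0154 CPM for Hoxd13 and 0.0260 for Six2 in Atxn7l3-/-, and 0.00626 for Dlx4os and 0.0259 for Nkx2-3 in WT. Some markers of other cell types also moved between the MEF genotypes. The 3 trophectoderm markers listed of 4 summed to 2.65 to 3.40 CPM in WT and 175 to 515 CPM in Atxn7l3-/-, with 1 of 2 tested called. This was the keratin gene Krt7, at 2.06 ± 1.13 and 360 ± 172 CPM. Eomes did not rise, at 1.05 ± 0.796 and 0.947 ± 0.498 CPM, and Elf5 was at 0.0218 CPM or less in every culture. The 4 primitive endoderm markers summed to 179 to 330 CPM in WT and 460 to 944 CPM in Atxn7l3-/-, with 2 of 3 tested called, Gata6 and Gata4, while 0 of 7 fibroblast markers were called. Ddx3y was at 0.218 CPM and Xist at 300 CPM in WT culture 3, against 59.2 CPM or more and 0.646 CPM or less in the 5 other cultures. The part of these transcripts and of WT culture 3 in the homeobox counts is given only by the counts without each culture, and was otherwise not tested. Leaving out 1 culture gave between 1 call, without WT culture 3, and 39 calls, without Atxn7l3-/- culture 3. It was 5 without Atxn7l3-/- culture 1 or 2, 6 without WT culture 1 and 9 without WT culture 2.

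Genes of the 2-cell-like state, the rare state of mESC cultures that resembles the 2-cell embryo in which Obox genes are known to be active, were mostly lower in Atxn7l3-/- mESCs. Of 24 genes in the list 23 were listed and 20 tested, and 17 were called lower and 0 higher, against 3.88% of all genes tested called lower. Their median log2 fold change was -5.21, or -5.19 with Zscan4b, which had no read in any Atxn7l3-/- line, at its bound. Zscan4a, a zinc finger gene of this state, was at 2.56 and 2.78 CPM in WT and at 0.0601, 0 and 0 CPM in Atxn7l3-/- mESCs. Zscan4d was at 6.01 and 5.34 CPM in WT and at 0.0902, 0 and 0.0791 CPM, and Usp17la, a deubiquitylase gene, at 5.84 and 3.46 CPM against 0.150, 0.0477 and 0.0264 CPM. Zscan4b was at 0.301 and 0.430 CPM in WT.

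Per length, the 17 genes called had WT means of 7.91 to 167 normalized reads per kb, below the 1457 of Crxos and the 1634 of Obox6. Not called were Sp110 (1.76 ± 0.605 to 0.417 ± 0.155 CPM) and the pair Dppa2 (55.8 ± 7.32 to 19.9 ± 12.04 CPM) and Dppa4 (51.0 ± 1.76 to 44.7 ± 4.09 CPM), regulators of Dux. Zscan4 and Usp17l genes are families of near-identical copies, so reads may be split between them. The count stayed at 17 without Atxn7l3-/- line 3 and was 18 without line 2, but it was 0 without WT line 1, WT line 2 or Atxn7l3-/- line 1. In those 3 fits 17, 20 and 19 of the list had an unadjusted p under 0.05. The list overlaps results already known for these data and is no independent support.

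Of the naive and core pluripotency genes a minority was called, all lower. All 20 were tested, 4 were called lower and 0 higher, against 3.88% of all genes tested called lower, and the median log2 fold change was -0.57 against 0.04 over all genes. Tdgf1, a Nodal coreceptor, fell by 1.71 on the log2 scale, Sall4 by 1.495, Klf2 by 1.31 and Tbx3 by 1.15. Pou5f1, the core pluripotency factor, was at 1015 ± 91.1 CPM in WT and 1168 ± 246 CPM in Atxn7l3-/-, and Sox2 at 278 ± 33.1 and 179 ± 29.9 CPM, neither passing the test. Without WT line 1, WT line 2 or Atxn7l3-/- line 1 the count was 0, with 6, 7 and 7 at an unadjusted p under 0.05, and without line 2 it was 6.

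**Figure D4:**
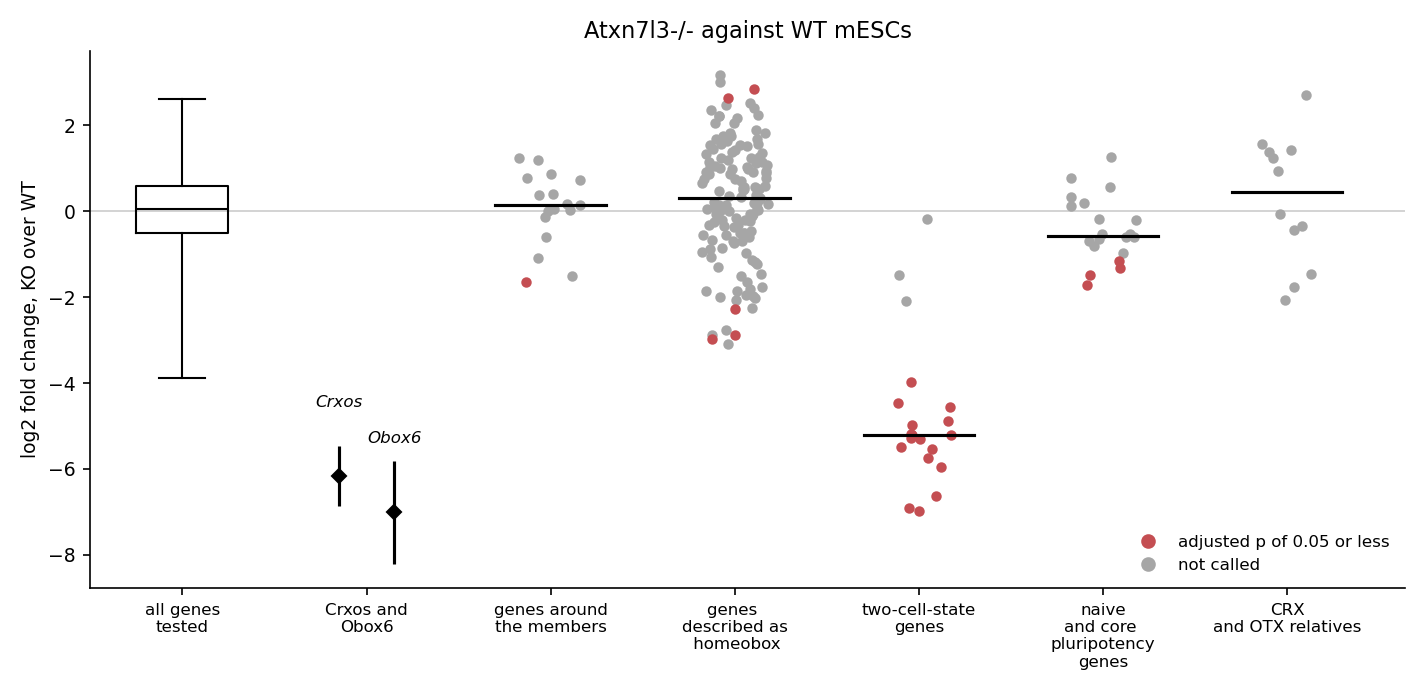
Log2 fold change of Atxn7l3-/- over WT mESCs for all genes tested (box: quartiles and median, whiskers: 1st and 99th percentiles), Crxos and Obox6 (diamonds with standard errors) and 5 gene lists (1 point per gene, red at an adjusted p of 0.05 or less, bars the medians). Crxos lay at -6.16, within the range of the 2-cell-stage genes (median -5.21), and Obox6 at -7.00, next to the lowest of them, Zscan4a at -6.98. Both lay below every gene of the other 4 lists, whose medians were -0.57 to 0.44. Crxos and Obox6 were picked for their fall in this contrast, so this place follows from the choice. The homeobox list leaves out Nkx1-2, at -6.70.

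Genes with the most similar profile to Crxos and Obox6 over all 11 libraries were looked up by the Pearson correlation of log2 CPM, over 20062 genes. The libraries share cell type and genotype, so a gene that is high in WT mESCs and low in all other libraries scores high, and the values are a description only. Nearest to Crxos were Usp17le (r = 0.996), Hsd17b3 (0.994), H2-M10.4 (0.992), Gm21818 (0.990) and Rbbp8nl (0.990). Nearest to Obox6 were G430049J08Rik (0.996), Alppl2 (0.995), Gm44693 (0.990), Usp17lb (0.989) and Gm2016 (0.988). No gene was among the 5 of both. Obox6 itself stood at place 31 for Crxos, with r = 0.971. The 10 genes had WT means of 4.90 to 107 and Atxn7l3-/- means of 0.520 to 4.85 normalized reads per kb, under the WT levels of Crxos and Obox6 on this scale. They lie on chromosomes other than 7 except Usp17le and Usp17lb, deubiquitylase genes of the 2-cell-like state. With Spearman's correlation 2 of the 5 for Crxos and 1 of the 5 for Obox6 stayed among the highest, and with the 5 mESC libraries alone 0 of the 5 did for either gene.

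The start regions of Crxos are of interest because Crxos RNA was low in Atxn7l3-/- mESCs, and RefSeq (GRCm38.p6) gives 3 of them. In 300 bases each, from 250 before to 50 after the start, none of the 3 held TAATCC, the core bound by CRX- and OTX-type homeodomains, on either strand, against 7.1% of 32851 mouse promoters. None held AAGGTCA, the site of ESRRB, against 4.7%. The third held TTCCNGGAA, the letters of a STAT3 site, against 1.1%, 246 bases before the start and shown in capitals here because the mESCs were grown with LIF, which signals through STAT3.
Crxos, chr7:15901396-15901695, plus strand: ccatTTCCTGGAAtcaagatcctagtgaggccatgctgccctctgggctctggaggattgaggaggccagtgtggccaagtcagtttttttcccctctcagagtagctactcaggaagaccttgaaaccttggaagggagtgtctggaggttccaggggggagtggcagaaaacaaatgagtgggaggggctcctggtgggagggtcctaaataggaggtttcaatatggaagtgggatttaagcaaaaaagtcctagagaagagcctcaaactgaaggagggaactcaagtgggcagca

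The matches are descriptions of these letters and not of binding. The Crx promoter held TAATCC 2 times and the Obox3 promoter 1 time, and the promoters of Obox1 and Obox2 each held AAGGTCA 1 time. The Obox1 and Obox2 promoters were the same at all 203 aligned bases. The Obox5 promoter held none of the 3 motifs. Obox6 had no entry among the promoters used, so its promoter was not searched.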

How the data were processed

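RNA-seq tables of WT and Atxn7l3-/- mESCs and MEFs, 1 per cell type, were analysed. According to the labels and the study's methods, the authors prepared stranded poly(A) libraries, trimmed reads with cutadapt 1.10, mapped them to mm10 with STAR 2.5.3a and counted them per gene with HTSeq 0.6.1p1, and 1 WT mESC dataset that they set aside was not analysed here. The deposited raw read counts are not normalized. The deposited normalized signal is the count divided by DESeq2 1.16.1 size factors and then by transcript length (median per gene, in kb). The deposited median transcript length, in bases, is not a measurement. Columns of the authors' own comparisons (fold changes and p-values) were not used.

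Counts were filtered (filterByExpr), normalized by TMM and fitted per cell type with edgeR 4.0.16 (quasi-likelihood test, R 4.3.3, Benjamini-Hochberg adjustment over all genes tested, threshold 0.05), leaving 17800 genes in mESCs and 15958 in MEFs. Scripts were tested on simulated data. In simulated mESC counts 43 of 50 8-fold decreases and 47 of 50 8-fold increases were called, against 4 and 9 of 50 at 2-fold. In simulated MEF counts these were 30 and 38 of 50 at 8-fold and 0 and 1 of 50 at 2-fold. Most 2-fold changes were thus missed, so a gene not called may differ by that much. CPM use TMM library sizes, and logs a prior count of 2. Tables and figures used pandas 2.3.3, numpy 2.4.6, scipy and matplotlib 3.10.9. Shared sequence was counted in 50-base words. The settings varied were the normalization (RLE, upper quartile), the filter, the tool (DESeq2), a replicate block, leaving out libraries, 1 fit of all 11 libraries, the study's thresholds and summed Obox loci. Replicate numbers came from the labels. In MEFs same-numbered libraries deviated together (r = 0.473, 0.161 and 0.240), so the numbers were taken to pair them, and blocked values stand beside counts they move.

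The members and gene lists were chosen with earlier results of these data known. Named genes were the members, other Obox loci, Atxn7l3, Crx, sex-linked genes, up to 4 called genes per list, and per direction in the window, with the largest changes, up to 2 uncalled genes per list and the 5 genes most like Crxos and Obox6. Replicates came from separate embryos. Primitive endoderm markers summed to 17.2 to 33.0 CPM in WT and 12.1 to 23.3 CPM in Atxn7l3-/- mESCs, and trophectoderm markers to 14.9 to 28.8 and 2.19 to 6.98 CPM.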

Additional observations from a re-analysis of the deposited data

Results flagged for a closer look

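The effect of the genotype differed between MEFs and mESCs for 10 of the genes named, tested as a cell type by genotype term in edgeR's quasi-likelihood fit of all 11 libraries (adjusted p of 0.05 or less). Apart from Atxn7l3, these genes were named for a called change in the same libraries. A difference between cell types was thus favoured by the choice, and the values are a description. No share over all genes is given beside them. The members were not tested in this way, since their mESC values chose them. The log2 fold change in MEFs exceeded that in mESCs by 9.04 for Dlx4os, 8.67 for Arg2, 8.40 for Nkx2-3, 7.97 for Usp17la and 5.97 for Atxn7l3. The same difference, MEFs minus mESCs, was negative for Hoxd13 at -9.23, Hoxa9 at -7.57, Six2 at -6.64, Dlx2 at -3.93 and Bbc3 at -3.25. Usp17la had 0, 0 and 2 reads in WT and 2, 1 and 5 in Atxn7l3-/- MEFs. For Hoxd13, Six2, Dlx4os and Nkx2-3 the lower MEF group had a mean under the floor, so the sizes of their differences are uncertain. Fitted within each cell type, Arg2, Bbc3, Dlx2, Hoxa9 and Nkx2-3 had opposite signs in the 2 cell types, while Dlx4os and Six2 were not tested in the mESC table and Usp17la was not tested in the MEF table. Arg2, the mitochondrial arginase gene, was at 3.03 ± 0.605 CPM in WT and 0.137 ± 0.058 CPM in Atxn7l3-/- mESCs, and at 0.0384 ± 0.017 and 0.710 ± 0.127 CPM in MEFs. No group has 4 or more libraries, so no library was tested as an outlier.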

How the results depend on the processing

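Crxos and Obox6 stayed far lower in Atxn7l3-/- mESCs under every alternative run. These runs reuse the mESC libraries whose values chose both genes, so they describe the processing only and are no independent support. Leaving out 1 library gave log2 fold changes of -7.02 to -5.67 for Crxos and -10.47 to -6.43 for Obox6, the extreme being without Atxn7l3-/- line 1. With only the libraries that express Ddx3y (WT lines and Atxn7l3-/- line 3, chosen after seeing the data) Obox6 moved to -14.27. Replicate numbers in mESCs mark no shared embryo and same-numbered lines did not deviate together (r = 0.008 and -0.172). With these numbers as a block Crxos was at -6.37 and Obox6 at -6.82, 15 homeobox genes and 1 CRX or OTX relative were called in mESCs, and 28 homeobox genes, 1 relative and 2 genes around the cluster in MEFs. Over all MEF genes the block gave 1355 lower calls in place of 701. It moved no other total count of calls it was run on by over 1.5 times, and it was not run on the cell type by genotype term.

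Counts over all genes depended on single libraries. In mESCs 1238 genes were called, 3424 with DESeq2, 2995 without the filter, 464 in 1 fit of all 11 libraries, 3890 with only the libraries that express Ddx3y and 0 to 2242 leaving out 1 library, with 0 on removing either WT line (2932 and 2994 at an unadjusted p under 0.05) and 3 without Atxn7l3-/- line 1. In MEFs 1501 were called, 3965 with DESeq2 and 197 to 2038 leaving out 1 library. DESeq2 covered 31518 genes in mESCs and 29450 in MEFs, and edgeR without the filter 31107 and 29450. Counts in these 2 settings are thus out of more genes than those of the main fit. DESeq2, no filter and the Ddx3y libraries gave 2, 4 and 4 calls around the cluster, 27, 27 and 30 of the homeobox genes and 1, 2 and 4 of the CRX and OTX relatives in mESCs, and the latter 2 settings gave 7 and 7 of the pluripotency genes. The fit of all 11 libraries gave 1 homeobox and 1 pluripotency gene. DESeq2 and no filter gave 44 and 30 homeobox genes and 2 and 2 relatives in MEFs, and DESeq2 gave 3 genes around the cluster there. Leaving out 1 library gave 0 to 3 calls around the cluster, 0 to 15 homeobox genes, 0 to 18 2-cell-stage genes, 0 to 6 pluripotency genes and 0 to 1 relatives in mESCs, and 1 to 39 homeobox genes, 0 relatives and 0 to 1 genes around the cluster in MEFs. A fit without 1 WT line assumes that the lone WT line varies like the others. The cause of these changes was not tested.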
